A study of Drosophila melanogaster with 8 samples.

Results

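Ovaries of adult Drosophila melanogaster in which stwl was targeted by RNA interference through the germline driver nosGAL4 were compared with ovaries that carried the driver without the hairpin, gene by gene across the whole table. These are 4 of the 8 RNA sequencing libraries of the series, taken by their labels, and every gene that passed a filter on low counts was included. The 2 libraries labelled knockdown had the genotype nosGAL4;stwl RNAi/TM6, and the 2 control libraries had the genotype nosGAL4;MKRS/TM6. TM6 was thus shared, while the hairpin and the absence of MKRS went together and cannot be told apart. All ovaries were dissected on days 1 to 3 after eclosion. The driver acts in germ cells, but the RNA came from whole ovaries, with their somatic cells and whatever tissue came along. The labels do not say whether the 2 libraries of a group came from separate sets of flies, so p-values measure only the spread between these libraries, which may be technical.

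Stonewall, the product of stwl, is a chromatin-associated nuclear protein with a MADF domain, needed by germline stem cells and by the developing oocyte. A fly ovary is made of strings of egg chambers, in which nurse cells load the oocyte with maternal RNA and protein while follicle cells around them secrete yolk proteins and the eggshell. Muscle sheaths, tracheae, haemocytes, nerve endings and fat body touch or wrap these strings. Growing egg chambers are known for a high demand for nucleotides, ribosomes and stored lipid. In bulk RNA, fewer cells of a type and less RNA per cell cannot be told apart, and this holds for every result here.

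The targeted gene had 61.1 and 27.7 CPM (counts per 1000000 counts of the library, scaled by edgeR's TMM factors) in the libraries labelled knockdown, against 23.1 and 16.9 CPM in the controls. On this scale its transcript was higher in both libraries that were labelled as its knockdown than in either control (log2 fold change 1.15, standard error [SE] 0.37, edgeR quasi-likelihood test, adjusted p = 0.0203 by Benjamini and Hochberg). Scaled to ribosomal protein genes it was 0.43 (edgeR adjusted p = 0.327), scaled to library totals 0.72 (edgeR adjusted p = 0.115), and in the 4 nosGAL4 libraries alone 1.07 (edgeR adjusted p = 0.0776), none of which passed. Scaled to library totals the levels were 53.5 and 24.5 CPM in the libraries labelled knockdown, against 28.5 and 18.8 CPM in the controls, and scaled to ribosomal protein genes they were 43.8 and 29.5 in the libraries labelled knockdown, against 33 and 21.4 in the controls. On both of these scales the groups overlapped, with knockdown replicate 2 below control replicate 1. Without knockdown replicate 1 the log2 fold change was 0.46 (edgeR adjusted p = 0.196) and without control replicate 2 it was 0.93 (edgeR adjusted p = 0.14), so the call rests on those libraries and on the scale. The exons of stwl overlap another gene in the annotation. Because the transcript was not lower on average in the libraries labelled as its knockdown, the groups are named by their labels throughout.

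Of 8957 genes tested, 3004 were higher in the libraries labelled knockdown (33.5%) and 2303 were lower (25.7%), at a Benjamini-Hochberg adjusted p under 0.05 in edgeR's quasi-likelihood test, so that 59.2% were called in either direction. Among changes of at least 4-fold the split was wider, with 1994 genes higher (22.3%) and 590 genes lower (6.59%). The groups did not overlap for 79.8% of the genes tested. The median log2 fold change over all genes tested was 0.11. It was -0.28 when libraries were scaled to their totals, which gave 2449 genes higher and 3246 lower, and -0.47 when they were scaled to the ribosomal protein genes, which gave 2125 higher and 3313 lower. The majority of calls thus turned from higher to lower on those scales, and calls of small changes depend on the scale. Library totals were 8459978 and 8531275 counts in the libraries labelled knockdown, against 8449050 and 10389310 counts in the controls.

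Markers of cell types moved in blocks, and these blocks stand beside every gene group described below. The summed level of the muscle markers was 43129 and 49087 CPM in the libraries labelled knockdown, against 850.3 and 988 CPM in the controls, and 15 of 16 tested rose. Haemocyte markers summed to 7729 and 8743 CPM in the libraries labelled knockdown, against 698 and 728 CPM in the controls, where the defining genes eater, NimC1 and He were at 0. For fat body markers the sums were 10876 and 4257 CPM in the libraries labelled knockdown, against 4111 and 3899.9 CPM in the controls, with Lsp1alpha and to at 0 in both controls. The yolk protein genes Yp1, Yp2 and Yp3, which follicle cells also express, make up most of these sums and did not pass. The other 10 of 13 tested rose, and 9 rose without knockdown replicate 1.

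Sums of rarer tissues were also higher in both libraries labelled knockdown. Neuron and glia markers summed to 606 and 838 CPM in the libraries labelled knockdown, against 27.3 and 31.3 CPM in the controls, with the transmitter genes VGlut, ChAT, Gad1 and VAChT at 0 in all 4 libraries. Of the 16 members 5 reached a mean of 5 CPM in the libraries labelled knockdown and 1 did in the controls. The member nrv2 is also in the list of septate junction genes described below. Markers of trachea, oenocytes and Malpighian tubules summed to 714 and 350.4 CPM in the libraries labelled knockdown, against 106 and 142 CPM in the controls, and markers of early somatic ovary cells to 2196 and 2818 CPM in the libraries labelled knockdown, against 245 and 249.5 CPM in the controls. Germline markers went the other way, with 15 of 20 lower and sums of 857 and 452 CPM in the libraries labelled knockdown, against 5438 and 5862 CPM in the controls. Late follicle cell and eggshell markers summed to 4986 and 1018 CPM in the libraries labelled knockdown, against 24488 and 25090.1 CPM in the controls. Of these, 12 of 18 fell, or 7 when either control replicate was left out. The part of any of these cell types in the results that follow was not tested.

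**Figure D1:**
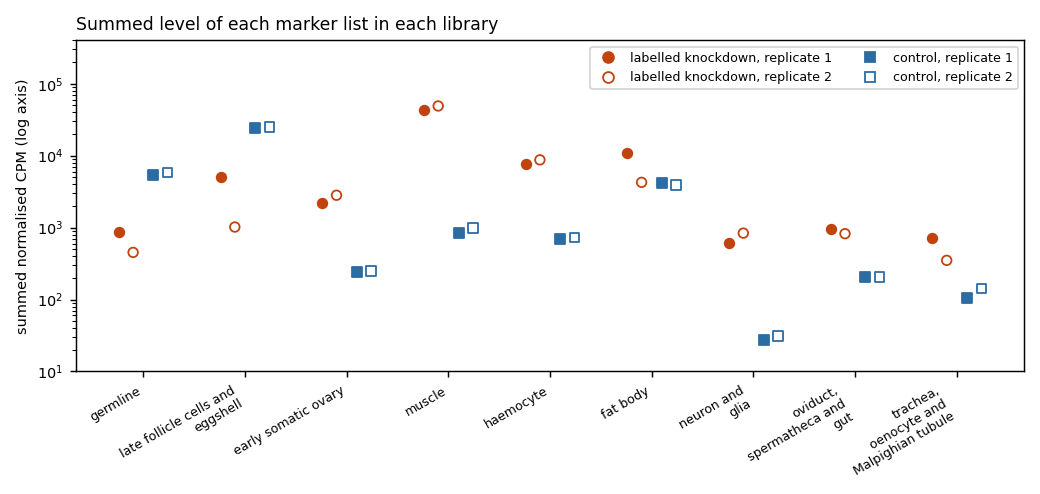
Summed normalised CPM (log axis) of 9 lists of cell type markers in each of the 4 libraries, by group and replicate. Germline and eggshell sums lie lower in both libraries labelled knockdown, the muscle, haemocyte and neuron sums lie higher in both, and the fat body sum of knockdown replicate 2 (4257 CPM) lies close to those of the controls (4111 and 3899.9 CPM), although 11 of its 13 tested members were higher in that library than in either control.

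The most abundant genes that rose at least 4-fold were, in part, muscle genes. Act57B, a muscle actin, had 11014 and 11609 CPM in the libraries labelled knockdown, against 95 and 106 CPM in the controls, and its log2 fold change was 6.81 (SE 0.35, edgeR adjusted p = 3.27e-07). Mlc2 and Mhc, a light chain and the heavy chain of muscle myosin, and wupA, the inhibitory troponin, rose by 6.56, 6.96 and 6.41 log2 units. The next 4 genes are not in the muscle list. The actin-binding gene cib had 4104 and 5509 CPM in the libraries labelled knockdown, against 542 and 566 CPM in the controls (log2 fold change 3.12, SE 0.28, edgeR adjusted p = 6.44e-06). The neuronal gene fax, named for a failed axon connection phenotype, had 4069 and 5566 CPM in the libraries labelled knockdown, against 303 and 361 CPM in the controls, a log2 fold change of 3.86. The signalling adaptor gene 14-3-3zeta had 3912 and 4116 CPM in the libraries labelled knockdown, against 542 and 524 CPM in the controls, a log2 fold change of 2.91. CG43134, which has a placeholder symbol, had 4734 and 5784 CPM in the libraries labelled knockdown, against 361 and 403 CPM in the controls (log2 fold change 3.78, SE 0.34, edgeR adjusted p = 6.87e-06). In all 8 genes the libraries of a group lay close to each other, while groups without overlap were required by the rule that named them.

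The most abundant genes that fell at least 4-fold were eggshell genes and maternal germline genes. Cp36, a chorion protein gene of follicle cells, had 192 and 97.9 CPM in the libraries labelled knockdown, against 3288 and 4050.1 CPM in the controls (log2 fold change -4.66, SE 0.38, edgeR adjusted p = 3.86e-06). Cp38, another chorion gene, had 365 and 24.8 CPM in the libraries labelled knockdown, against 3780.2 and 4432 CPM in the controls, so its groups did not overlap but its 2 libraries labelled knockdown were far apart (log2 fold change -4.4, SE 1.25, edgeR adjusted p = 0.0286). Its call was lost without control replicate 1 (edgeR adjusted p = 0.079) or control replicate 2 (edgeR adjusted p = 0.0887). Cp15 and Cp19 fell by 5.29 and 5.2 log2 units and the eggshell organiser dec-1 by 2.62. The Cp19 call was also lost without control replicate 1 (edgeR adjusted p = 0.0527) or control replicate 2 (edgeR adjusted p = 0.0501).

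Among the maternal genes, tral and me31B encode partners that repress translation in germline RNA granules. The tral transcript had 555 and 342 CPM in the libraries labelled knockdown, against 2838 and 3567 CPM in the controls (log2 fold change -2.84, SE 0.30, edgeR adjusted p = 2.5e-05). The me31B transcript had 495 and 337 CPM in the libraries labelled knockdown, against 2604 and 2236 CPM in the controls (log2 fold change -2.54, SE 0.28, edgeR adjusted p = 2.86e-05). CycB, a mitotic cyclin stored in the oocyte, had 207 and 56.5 CPM in the libraries labelled knockdown, against 2325 and 2697 CPM in the controls (log2 fold change -4.25, SE 0.55, edgeR adjusted p = 0.000248). The rule that named these genes took only genes without overlap between the groups, so their separation is not a result.

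**Figure D2:**
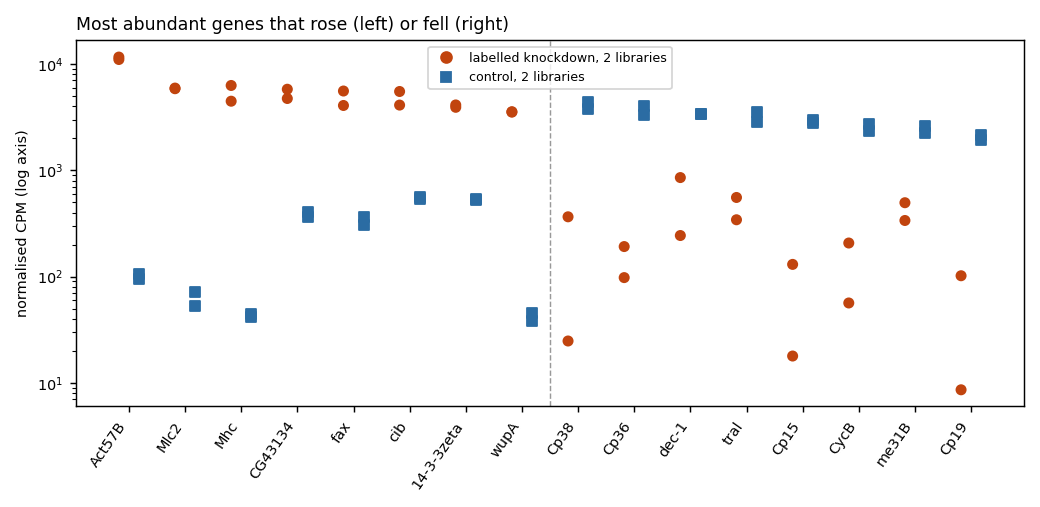
Normalised CPM (log axis) in each of the 4 libraries for the 8 most abundant genes that rose and the 8 most abundant that fell at least 4-fold with no overlap between groups. The libraries labelled knockdown lie close together for the genes that rose and further apart for several that fell. Examples are Cp38 at 365 and 24.8 CPM and the germline gene CycB at 207 and 56.5 CPM.

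Gene groups of metabolism, secretion and signalling are described next by their counts, read against the 33.5% of all genes tested that were higher and the 25.7% that were lower. Beyond the members with the smallest p in each list, those named were chosen after their values were seen. In glycolysis, the pathway that splits glucose to pyruvate, 4 of 15 genes rose and the other 11 did not pass, with a median log2 fold change of -0.08. Ldh, which makes lactate from pyruvate, had 18.2 and 23.7 CPM in the libraries labelled knockdown, against 1.15 and 1.13 CPM in the controls (log2 fold change 4.19, SE 0.39, edgeR adjusted p = 8.93e-06). Hex-A, a hexokinase gene, had 719 and 678 CPM in the libraries labelled knockdown, against 242 and 252 CPM in the controls, a log2 fold change of 1.5. Hex-C, another hexokinase gene, and the aldolase gene Ald1 rose by 1.69 and 1.91 log2 units. With totals or ribosomal protein genes as the scale, 3 glycolysis genes fell.

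Of the 10 tested genes for sugar transport, trehalose and glycogen 3 rose, with a median log2 fold change of -0.51 for the list. Genes that act on the circulating sugar trehalose were among those that rose. Treh, which splits trehalose, had 906 and 1334 CPM in the libraries labelled knockdown, against 101 and 91.4 CPM in the controls (log2 fold change 3.54, SE 0.28, edgeR adjusted p = 3.01e-06). Tret1-1, a trehalose transporter gene, had 122 and 138 CPM in the libraries labelled knockdown, against 18.4 and 25.1 CPM in the controls, a log2 fold change of 2.58, and the trehalose synthesis gene Tps1 rose by 2.73 log2 units. The sugar transporter gene sut1 fell, with 13.4 and 8.36 CPM in the libraries labelled knockdown, against 68.2 and 93.6 CPM in the controls (log2 fold change -2.9, SE 0.33, edgeR adjusted p = 4.19e-05). The glycogen synthase gene GlyS, the branching enzyme gene AGBE and the phosphoglucomutase gene Pgm1 fell by 0.66, 0.92 and 0.74 log2 units. Of the 10 tested of 14 genes, 4 fell, but 2 did without control replicate 1, 1 without control replicate 2 and 2 without knockdown replicate 2. The call of Pgm1 was lost without control replicate 2 (edgeR adjusted p = 0.138), without knockdown replicate 2 (edgeR adjusted p = 0.113) and when the trend with transcript length was removed by an offset (edgeR adjusted p = 0.0796). Of these 4 genes, sut1 changed by more than 2-fold and the others by less.

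In the tricarboxylic acid cycle, which oxidises acetyl groups in mitochondria, 10 of 17 genes rose and the other 7 did not pass, with a median log2 fold change of 0.73. Nc73EF, which encodes a subunit of oxoglutarate dehydrogenase, had 212 and 280.1 CPM in the libraries labelled knockdown, against 81.2 and 94.9 CPM in the controls (log2 fold change 1.48, SE 0.24, edgeR adjusted p = 0.00052). CG5028, listed as an isocitrate dehydrogenase subunit gene, had 220.4 and 207 CPM in the libraries labelled knockdown, against 97.3 and 86.5 CPM in the controls, a log2 fold change of 1.22, a call lost with ribosomal protein genes as the scale (edgeR adjusted p = 0.138). The succinate dehydrogenase genes SdhB, SdhC and SdhD rose by 1.15, 1.02 and 1.5 log2 units, whereas SdhA, with 0.04, did not pass. Without control replicate 2, 6 genes rose. With library totals 6 rose and with ribosomal protein genes as the scale 2 did, where 1 fell, the list's median was 0.11 and that of all genes tested -0.47.

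Most of the genes that build nucleotides fell, 14 of 21 against 2 that rose, with a median log2 fold change of -0.95. Prat, the entry enzyme of purine synthesis, had 25.4 and 13.3 CPM in the libraries labelled knockdown, against 73.1 and 93.5 CPM in the controls (log2 fold change -2.11, SE 0.31, edgeR adjusted p = 0.000254). The enzyme gene dUTPase, which keeps uracil out of DNA, had 34.6 and 21.2 CPM in the libraries labelled knockdown, against 95.4 and 121 CPM in the controls (log2 fold change -1.95, SE 0.28, edgeR adjusted p = 0.00021). The ribonucleotide reductase genes RnrL and RnrS fell by 1.97 and 1.93 log2 units, the thymidylate synthase gene Ts by 2.01 and the purine genes Gart and Pfas by 1.61 and 1.52. Of the 2 genes that rose, Adk1, an adenylate kinase gene, had 86.3 and 107 CPM in the libraries labelled knockdown, against 8.25 and 9.96 CPM in the controls (log2 fold change 3.4, SE 0.29, edgeR adjusted p = 4.81e-06). Prat2, a paralog of Prat, rose as well but stayed at a low level, with 6.49 and 5.04 CPM in the libraries labelled knockdown, against 1.05 and 0.606 CPM in the controls. Prat, dUTPase, Adk1 and Prat2 were named for the smallest p in the list. Their groups did not overlap, as for 79.8% of all genes tested.

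Serine, folate and methionine metabolism was mixed, with 4 of 16 genes higher and 5 lower. Under 1 CPM in the controls were 4 of the 16, which passed the filter through other libraries. Among the 11 with a mean of at least 5 CPM over the 4 libraries 3 rose and 5 fell. Cbs, which turns homocysteine into cystathionine, had 10.3 and 21.6 CPM in the libraries labelled knockdown, against 101 and 121 CPM in the controls (log2 fold change -2.8, SE 0.36, edgeR adjusted p = 0.000103). Ahcy, which clears S-adenosylhomocysteine, had 119.9 and 106 CPM in the libraries labelled knockdown, against 310.0 and 343 CPM in the controls, a log2 fold change of -1.53. The folate gene Nmdmc and the serine gene aay rose by 1.27 and 1.18 log2 units, calls that were lost with ribosomal protein genes as the scale, where 1 gene of the list rose and 7 fell (edgeR adjusted p = 0.109 and 0.17). The polyamine genes parted, since ornithine decarboxylase gene Odc1 rose by 2.61 log2 units and the spermidine synthase gene SpdS fell by 2.23.

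The 2 glutamine synthetase genes moved in opposite directions. Gs2, the cytosolic enzyme known from glia, had 249 and 327 CPM in the libraries labelled knockdown, against 5.56 and 3.81 CPM in the controls (log2 fold change 5.94, SE 0.30, edgeR adjusted p = 3.27e-07). Gs1, the mitochondrial enzyme, had 79 and 91.4 CPM in the libraries labelled knockdown, against 332 and 414 CPM in the controls (log2 fold change -2.13, SE 0.23, edgeR adjusted p = 2.49e-05). The library values of each gene lay close together within the groups. Oat, an ornithine aminotransferase gene, rose by 1.99 log2 units and AsnS, the asparagine synthetase gene, fell by 1.61. Of the 15 amino acid genes tested, 8 rose and 3 fell, and 5 rose and 4 fell with ribosomal protein genes as the scale. With library totals 6 rose and 5 fell. Under 1 CPM in the controls were 4 of the tested members, which passed the filter through other libraries. Among the 11 with a mean of at least 5 CPM over the 4 libraries 5 rose and 3 fell.

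Lipid genes were split as well. Of the 25 genes for fat synthesis and storage 12 rose and 4 fell, but 5 rose and 5 fell with ribosomal protein genes as the scale. The list's median was 0.48, and -0.09 on that scale. The lipase gene Lip4 had 137 and 53.5 CPM in the libraries labelled knockdown, against 9.4 and 9.27 CPM in the controls (log2 fold change 3.35, SE 0.41, edgeR adjusted p = 7.75e-05). Lsd-1, a lipid droplet protein gene that is also in the fat body list, had 96.9 and 54.2 CPM in the libraries labelled knockdown, against 14.8 and 10.6 CPM in the controls (log2 fold change 2.58, SE 0.39, edgeR adjusted p = 0.000333). Both were higher in knockdown replicate 1, as were the fat body markers. The diacylglycerol acyltransferase gene mdy, which egg chambers use to store fat, had 11.9 and 10.5 CPM in the libraries labelled knockdown, against 39.4 and 47.7 CPM in the controls (log2 fold change -1.96, SE 0.26, edgeR adjusted p = 0.000119). Agpat4, for another step of lipid assembly, had 5.41 and 2.92 CPM in the libraries labelled knockdown, against 23.8 and 28.7 CPM in the controls, a log2 fold change of -2.65, and Agpat2 and Seipin fell by 1.85 and 1.52.

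Of 18 genes for fatty acid oxidation 5 fell and the other 13 did not pass. With knockdown replicate 2 left out, 2 rose. Acox57D-p, a peroxisomal acyl-CoA oxidase gene, had 2.97 and 3.05 CPM in the libraries labelled knockdown, against 41.5 and 40.1 CPM in the controls (log2 fold change -3.75, SE 0.32, edgeR adjusted p = 5.05e-06), and its neighbour Acox57D-d fell by 3.4 log2 units. The mitochondrial oxidation genes whd, Mtpalpha and Mtpbeta had log2 fold changes of 0.09, 0.37 and 0.18 and did not pass. Among 15 peroxisome biogenesis genes tested 2 fell, Pex11 by 1.12 and Pex23 by 1.05, and 2 rose, Pex19 by 1.0 and Pex6 by 0.98 log2 units. With knockdown replicate 1 left out 5 fell and 1 rose, and with control replicate 2 left out 1 fell and 1 rose. The calls of Pex6 and Pex23 were lost without knockdown replicate 1 (edgeR adjusted p = 0.184 and 0.0933) and when either control was left out. With library totals 1 peroxisome gene rose and 5 fell, and with ribosomal protein genes as the scale none rose and 7 fell. The rises of Pex19 and Pex6 were lost on the ribosomal protein scale (edgeR adjusted p = 0.31 and 0.494), and that of Pex6 also with library totals (edgeR adjusted p = 0.216).

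Among 19 antioxidant genes 6 rose and 4 fell. Cat, the catalase gene, had 373 and 368 CPM in the libraries labelled knockdown, against 48.9 and 49.3 CPM in the controls (log2 fold change 2.92, SE 0.26, edgeR adjusted p = 6.05e-06). Jafrac1, a peroxiredoxin gene, had 1239 and 1398 CPM in the libraries labelled knockdown, against 443 and 489 CPM in the controls, a log2 fold change of 1.5. The germline thioredoxin gene dhd, which acts at fertilisation, had 173 and 102 CPM in the libraries labelled knockdown, against 1588 and 1836 CPM in the controls (log2 fold change -3.64, SE 0.38, edgeR adjusted p = 2.31e-05). Gclm, a regulator of glutathione synthesis, fell by 1.8 log2 units, while the superoxide dismutase genes Sod1 and Sod2, with 0.19 and 0.32, did not pass. The number that rose was 3 without control replicate 1, 3 with library totals and 2 with ribosomal protein genes as the scale.

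Metal handling genes changed in both directions, with a median log2 fold change of 0.79, or 0.14 with ribosomal protein genes as the scale. MtnA, a metallothionein gene, had 1129 and 1542 CPM in the libraries labelled knockdown, against 37.7 and 43 CPM in the controls (log2 fold change 5.05, SE 0.39, edgeR adjusted p = 2.58e-06). Zip89B, a gene of the zinc importer family, had 66.2 and 43.6 CPM in the libraries labelled knockdown, against 2.97 and 2.77 CPM in the controls, a log2 fold change of 4.25. ZnT35C, of the zinc exporter family, fell, with 3.24 and 3.45 CPM in the libraries labelled knockdown, against 53 and 60.7 CPM in the controls (log2 fold change -4.08, SE 0.34, edgeR adjusted p = 4.49e-06). The ferritin genes Fer1HCH and Fer2LCH rose by 1.91 and 3.02 log2 units. Of 28 metal genes 21 were tested, of which 11 rose and 3 fell, with 1 lower without control replicate 2 and 5 lower without knockdown replicate 1. With library totals or ribosomal protein genes as the scale 5 fell. Under 1 CPM in the controls were 3 of the tested members, which passed the filter through other libraries. Among the 18 with a mean of at least 5 CPM over the 4 libraries 8 rose and 3 fell.

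Detoxification families stood at low levels in the controls. Of 91 cytochrome P450 genes in the table, 40 reached a mean of 5 CPM in the libraries labelled knockdown and 14 in the controls, where all 14094 genes gave 7418 and 6709. Of 35 UDP-glycosyltransferase genes, 15 did so in the libraries labelled knockdown and 5 in the controls. Many members of both families thus passed the filter through libraries other than these controls, and no count of calls is read from them. Cyp4d8 had 92.7 and 145 CPM in the libraries labelled knockdown, against 0.192 and 0.866 CPM in the controls (log2 fold change 7.75, SE 0.49, edgeR adjusted p = 8.32e-07). Cyp6a22, which had a clear level in the controls, fell, with 5.95 and 3.45 CPM in the libraries labelled knockdown, against 59.6 and 77.6 CPM in the controls (log2 fold change -3.87, SE 0.36, edgeR adjusted p = 9.55e-06). Cyp4s3 had 6.22 and 2.39 CPM in the libraries labelled knockdown, against 48.5 and 50.7 CPM in the controls, a log2 fold change of -3.53. The ecdysone synthesis genes dib, sad and spo, which ovaries are known to express, had log2 fold changes of -1.11, -0.27 and -0.36 and did not pass.

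Glutathione transferases, which attach glutathione to toxic compounds, were mixed, with 10 of 25 tested higher and 5 lower (3 without control replicate 2). GstE12 had 351 and 355 CPM in the libraries labelled knockdown, against 28.2 and 32.6 CPM in the controls (log2 fold change 3.54, SE 0.25, edgeR adjusted p = 1.56e-06). GstO1 had 7.57 and 7.96 CPM in the libraries labelled knockdown, against 36.8 and 44.9 CPM in the controls (log2 fold change -2.39, SE 0.29, edgeR adjusted p = 5.65e-05). The abundant GstD1, with a log2 fold change of 0.07, did not pass. Under 1 CPM in the controls were 4 of the tested members, which passed the filter through other libraries. Among the 20 with a mean of at least 5 CPM over the 4 libraries 7 rose and 5 fell.

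Lysosomes and autophagy share the task of breaking down cell contents. Of the 23 lysosomal genes tested, out of 28, 17 rose, with 13 rising when ribosomal protein genes were the scale, and 1 fell when control replicate 2 was left out. Of the tested members 6 were under 1 CPM in the controls and passed the filter through other libraries. Among the 17 with a mean of at least 5 CPM over the 4 libraries 15 rose. Npc1a, a cholesterol exporter gene of lysosomes, had 431 and 481 CPM in the libraries labelled knockdown, against 50.3 and 50.2 CPM in the controls (log2 fold change 3.18, SE 0.22, edgeR adjusted p = 1.5e-06). Gal, a beta-galactosidase gene, had 33.2 and 50.4 CPM in the libraries labelled knockdown, against 0.48 and 0.779 CPM in the controls (log2 fold change 6.01, SE 0.40, edgeR adjusted p = 1.2e-06). The saposin precursor gene Sap-r and the membrane protein gene Lamp1 rose by 3.35 and 1.52 log2 units. Of 23 autophagy genes 5 rose and 4 fell. Atg8a, whose product coats autophagosomes, had 1025 and 1238 CPM in the libraries labelled knockdown, against 172 and 190.2 CPM in the controls (log2 fold change 2.64, SE 0.33, edgeR adjusted p = 7.09e-05). Atg16 fell by 1.15 log2 units, and Atg1, Atg5, Atg7 and Atg12, with -0.18, -0.32, 0.12 and -0.30, did not pass. Without control replicate 1 3 autophagy genes rose and 2 fell, and without control replicate 2 3 rose and 1 fell. With library totals 1 rose and 5 fell, and with ribosomal protein genes as the scale 1 rose and 4 fell.

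**Figure D3:**
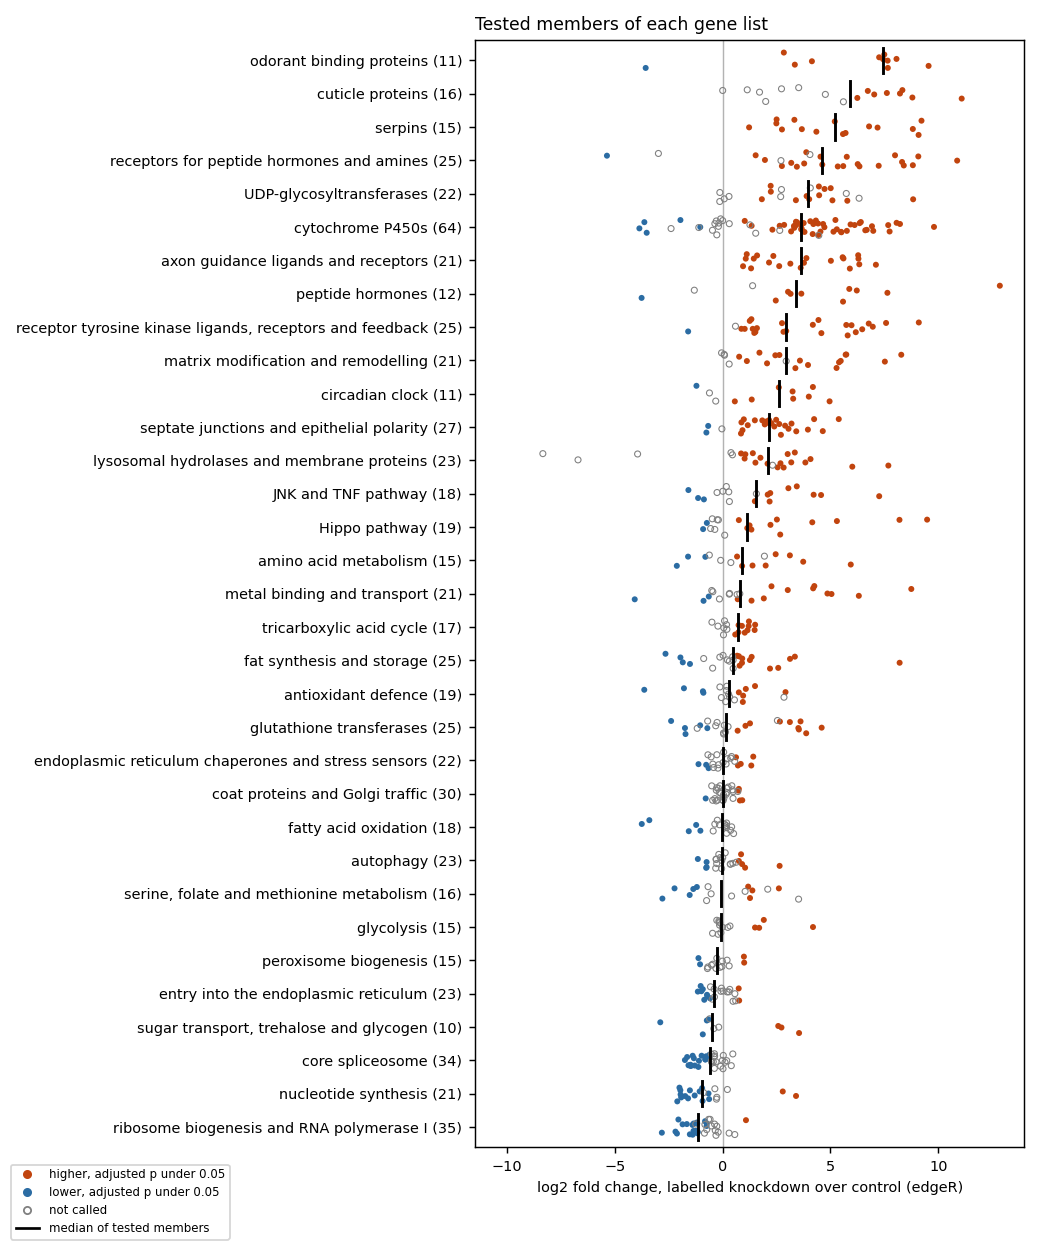
Log2 fold change, labelled knockdown over control, of each tested member of 33 gene lists, with the median of each list. Ribosome biogenesis has the lowest median, -1.16, and odorant binding proteins the highest, 7.44, where 7 of 11 tested members were under 1 CPM in the controls. With members at 0 in the controls set at their bound, that median is 4.64. Of 50 odorant binding protein genes 39 were not tested, and without a filter the median over 25 is 0.15, so the rank rests on the filter. Of 125 cuticle protein and 44 peptide hormone genes, 109 and 32 were likewise not tested.

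Few genes of the secretory route passed the test. Of 30 genes for coat proteins and Golgi traffic 4 rose and 1 fell, with a median log2 fold change of 0.03. Arf79F, a GTPase gene that recruits coats, had 931 and 919 CPM in the libraries labelled knockdown, against 514 and 472 CPM in the controls (log2 fold change 0.91, SE 0.21, edgeR adjusted p = 0.00375). Sec16, which organises exit sites of the endoplasmic reticulum, had 90.5 and 104 CPM in the libraries labelled knockdown, against 159 and 177 CPM in the controls (log2 fold change -0.79, SE 0.30, edgeR adjusted p = 0.0426), a call lost without any 1 of the 4 libraries. The number that rose was 1 without control replicate 1 and 2 without control replicate 2. With library totals none rose and 7 fell. With ribosomal protein genes as the scale none rose, 6 fell and Arf79F did not pass (edgeR adjusted p = 0.432).

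For entry into the endoplasmic reticulum, 8 of 23 genes fell and 2 rose. Srp68, of the signal recognition particle, had 80.7 and 57 CPM in the libraries labelled knockdown, against 126 and 135 CPM in the controls (log2 fold change -0.92, SE 0.24, edgeR adjusted p = 0.00738). SsRbeta, of the translocon-associated complex, fell by 1.15 log2 units (edgeR adjusted p = 0.0814 without control replicate 2). The number that fell was 4 without control replicate 1, 1 without control replicate 2 and 3 without knockdown replicate 2. The number that rose was 4 without knockdown replicate 2, and none rose without either single control. With library totals or ribosomal protein genes as the scale none rose and 12 fell, while with a transcript length offset 6 rose and 5 fell. Of 22 chaperone and stress sensor genes 5 rose and 3 fell, against 2 and 1 without control replicate 1 and 3 and 1 without control replicate 2. The balance turned with the scale, with 2 higher and 9 lower for library totals and 1 higher and 8 lower for ribosomal protein genes. The stress transcription factor gene crc, the fly Atf4, had 941 and 1059.8 CPM in the libraries labelled knockdown, against 366 and 383 CPM in the controls (log2 fold change 1.42, SE 0.23, edgeR adjusted p = 0.000408). Xbp1, target of the Ire1 branch, rose by 1.33 log2 units, a call lost with ribosomal protein genes as the scale (edgeR adjusted p = 0.0821), while the chaperone gene Hsc70-3, with -0.22, did not pass.

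Of 21 tested genes that modify and remodel the extracellular matrix 16 rose, or 14 with ribosomal protein genes as the scale. Of the tested members 4 were under 1 CPM in the controls and passed the filter through other libraries, and among the 18 with a mean of at least 5 CPM over the 4 libraries 15 rose. SPARC, a collagen-binding protein gene, had 500.4 and 462 CPM in the libraries labelled knockdown, against 11.5 and 13.2 CPM in the controls (log2 fold change 5.28, SE 0.28, edgeR adjusted p = 3.27e-07). Ppn, the papilin gene of basement membranes, had 1867 and 3042 CPM in the libraries labelled knockdown, against 13.9 and 12.7 CPM in the controls (log2 fold change 7.53, SE 0.45, edgeR adjusted p = 6.3e-07). The matrix metalloproteinase genes Mmp1 and Mmp2 rose by 5.48 and 5.4 log2 units and their inhibitor gene Timp by 3.58. Pxn, which is also a haemocyte marker, rose by 8.29, beside a summed haemocyte marker level of 7729 and 8743 CPM in the libraries labelled knockdown, against 698 and 728 CPM in the controls. The heparan sulfate genes sfl and sotv, with 0.30 and -0.05, did not pass.

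Several families of secreted proteins were seen mainly in the libraries labelled knockdown. Of 28 serpin genes, inhibitors of proteases, 13 reached a mean of 5 CPM there and 3 in the controls. The serpin gene nec, which restrains the Toll pathway, had 111 and 161 CPM in the libraries labelled knockdown, against 2.78 and 2.42 CPM in the controls (log2 fold change 5.7, SE 0.33, edgeR adjusted p = 5.25e-07). Cuticle proteins reached 5 CPM for 5 of 125 genes in the libraries labelled knockdown and 0 in the controls. For odorant binding proteins these numbers were 9 in the libraries labelled knockdown and 2 in the controls, of 50. Obp19c was the member that fell, with 26.2 and 1.46 CPM in the libraries labelled knockdown, against 154 and 175 CPM in the controls, a call lost without control replicate 1 (edgeR adjusted p = 0.108) or 2 (edgeR adjusted p = 0.122).

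Peptide hormone genes reached a mean of 5 CPM for 8 of 44 genes in the libraries labelled knockdown and for 3 in the controls. Nplp3, a neuropeptide precursor gene, had 75.9 and 114 CPM in the libraries labelled knockdown, against no counts in the controls, so it was at least 695-fold higher against a floor of 3 counts over both controls. The ion transport peptide gene ITP had 62 and 68.3 CPM in the libraries labelled knockdown, against 6.24 and 4.16 CPM in the controls (log2 fold change 3.65, SE 0.30, edgeR adjusted p = 4.04e-06). Ilp8, a relaxin-like hormone gene that mature follicles express, fell, with 1.35 and 1.86 CPM in the libraries labelled knockdown, against 18.7 and 25.2 CPM in the controls (log2 fold change -3.76, SE 0.46, edgeR adjusted p = 6.52e-05).

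Receptors for peptides and amines reached 5 CPM for 14 of 46 genes in the libraries labelled knockdown and for 4 in the controls. MsR1, a myosuppressin receptor gene, had 44.2 and 47 CPM in the libraries labelled knockdown, against 0.671 and 0.433 CPM in the controls (log2 fold change 6.35, SE 0.36, edgeR adjusted p = 4.61e-07). The octopamine receptor genes Oamb and Octbeta2R, which act in ovulation, rose by 1.96 and 3.88 log2 units, and the insulin receptor gene InR by 1.53. The maternal receptor gene tor, which patterns the embryo's ends, had 0.27 and 2.25 CPM in the libraries labelled knockdown, against 51.5 and 54.5 CPM in the controls (log2 fold change -5.37, SE 0.72, edgeR adjusted p = 0.000322).

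Receptor tyrosine kinase genes, which relay growth factors such as EGF, FGF and PDGF, rose for 23 of 25 tested of 30. The median log2 fold change was 2.95, and 17 rose with ribosomal protein genes as the scale. Of the tested members, 6 were under 1 CPM in the controls and so passed the filter through other libraries. Both the count and the median include these 6, for which the filter favoured a rise. Among ligands, ths and bnl, both of the FGF family, rose by 7.58 and 5.74 log2 units and the EGF-like genes vn, Krn and spi by 4.44, 1.47 and 0.87. Among receptors, Pvr, for PDGF- and VEGF-like ligands, had 292 and 398 CPM in the libraries labelled knockdown, against 19.6 and 18.4 CPM in the controls (log2 fold change 4.18, SE 0.27, edgeR adjusted p = 1.01e-06). The Ryk family receptor gene drl had 66.6 and 96.6 CPM in the libraries labelled knockdown, against 0 and 0.26 CPM in the controls, a ratio of summed counts of 599 (95% counting interval 204 to 2907). Egfr rose by 2.75 log2 units.

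S, also called Star, which helps EGF ligands leave the endoplasmic reticulum, was the member that fell, with 42.2 and 46.3 CPM in the libraries labelled knockdown, against 128 and 141 CPM in the controls (log2 fold change -1.6, SE 0.23, edgeR adjusted p = 0.000177). The secreted Egfr inhibitor gene aos, with 0.59, did not pass. The oocyte's EGF ligand gene grk had 31.1 and 37.1 CPM in the libraries labelled knockdown, against 11.4 and 11.3 CPM in the controls (log2 fold change 1.59, SE 0.24, edgeR adjusted p = 0.00033), so that it rose while most germline markers fell, and its exons overlap another gene. Another germline marker, bgcn, a partner of bam in cyst differentiation, was near 0 in the controls and passed as higher, with 8.51 and 4.11 CPM in the libraries labelled knockdown, against 0 and 0.0866 CPM in the controls, a ratio of summed counts of 138 (95% counting interval 24.2 to 5518). The marker genes exu and mtrm, which act in RNA localisation and meiosis, fell by 5.62 and 5.71 log2 units.

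In the Hippo pathway, which limits growth, the core genes hpo, wts, sav and mats, with log2 fold changes of 0.09, -0.20, -0.37 and -0.25, did not pass. Its transcription factor gene sd had 331 and 346 CPM in the libraries labelled knockdown, against 60.5 and 57.9 CPM in the controls (log2 fold change 2.52, SE 0.24, edgeR adjusted p = 1.15e-05). Its upstream gene ex, also a target, had 48.9 and 28 CPM in the libraries labelled knockdown, against 2.3 and 1.99 CPM in the controls (log2 fold change 4.16, SE 0.37, edgeR adjusted p = 7.35e-06). Of 19 genes tested 11 rose and 2 fell. Under 1 CPM in the controls were 3 of the 19, which passed the filter through other libraries. Among the 16 with a mean of at least 5 CPM over the 4 libraries 8 rose and 2 fell. The 2 that fell, Mer and Rassf, lost their calls without control replicate 1 (edgeR adjusted p = 0.069 and 0.0707) and without control replicate 2 (edgeR adjusted p = 0.0869 and 0.124). With ribosomal protein genes as the scale 7 rose and 6 fell, with library totals 7 fell, and with a transcript length offset 4 fell. The log2 fold change of sd was 1.33 with the length offset.

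In the JNK and TNF pathway, a response to stress and damage, 9 of 18 genes rose and 3 fell. The TNF ligand gene egr had 112 and 157 CPM in the libraries labelled knockdown, against 6.52 and 7.88 CPM in the controls (log2 fold change 4.22, SE 0.29, edgeR adjusted p = 1.21e-06). The Fos transcription factor gene kay had 454 and 624 CPM in the libraries labelled knockdown, against 23.9 and 21.6 CPM in the controls (log2 fold change 4.57, SE 0.28, edgeR adjusted p = 6.99e-07). The kinase gene bsk, the fly JNK, and its feedback phosphatase gene puc rose by 2.09 and 2.21 log2 units. The adaptor genes Traf6 and Tab2 fell by 1.59 and 1.14, and the kinase genes hep, Mkk4 and Tak1, with -0.26, 0.01 and 0.17, did not pass.

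Each of the 21 axon guidance genes tested, of 23, rose, and 16 did with ribosomal protein genes as the scale. Their median log2 fold change was 3.62, and 4 were under 1 CPM in the controls, for which the filter favoured a rise. All 18 with a mean of at least 5 CPM over the 4 libraries rose. With a transcript length offset the median was 2.53, 18 rose, and the log2 fold change of Ten-m described next was 3.52. Ten-m, a teneurin cell surface gene, had 293 and 419 CPM in the libraries labelled knockdown, against 7.58 and 7.45 CPM in the controls (log2 fold change 5.57, SE 0.29, edgeR adjusted p = 3.27e-07). The Slit receptor gene robo1 had 89 and 81 CPM in the libraries labelled knockdown, against 1.44 and 1.39 CPM in the controls (log2 fold change 5.9, SE 0.35, edgeR adjusted p = 6.34e-07). The plexin gene PlexA and the receptor gene Eph rose by 1.07 and 0.94 log2 units, the smaller end of the list.

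Septate junctions seal epithelia, and their genes, all of which were tested, were measured at a mean of 5 CPM or more in both groups. Of 27 junction and polarity genes 24 rose and 2 fell, with a summed level of 11193 and 15995 CPM in the libraries labelled knockdown, against 2227 and 2363 CPM in the controls. The junction scaffold gene cora had 1089 and 1881 CPM in the libraries labelled knockdown, against 37.6 and 33.4 CPM in the controls (log2 fold change 5.39, SE 0.34, edgeR adjusted p = 7.8e-07), and the neurexin gene Nrx-IV had 312 and 443 CPM in the libraries labelled knockdown, against 22.8 and 25.9 CPM in the controls (log2 fold change 3.95, SE 0.26, edgeR adjusted p = 1.01e-06). The groups did not overlap for these genes, as for 79.8% of all genes tested. The polarity genes par-6 and aPKC, which also act in the oocyte, fell by 0.76 and 0.67 log2 units. Both calls were lost without knockdown replicate 1 (edgeR adjusted p = 0.0816 and 0.161) and without control replicate 2 (edgeR adjusted p = 0.0848 and 0.285). With ribosomal protein genes as the scale 18 rose. Without control replicate 1 1 fell, and none fell without control replicate 2 or without knockdown replicate 1.

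The clock gene vri, a repressor of the daily oscillator, had 123 and 121 CPM in the libraries labelled knockdown, against 6.91 and 6.49 CPM in the controls (log2 fold change 4.19, SE 0.27, edgeR adjusted p = 9.55e-07). The gene tim had 177 and 156 CPM in the libraries labelled knockdown, against 19.2 and 15.9 CPM in the controls, a log2 fold change of 3.24. Of 11 clock genes 8 rose, and the kinase gene dco, which has roles beyond the clock, fell by 1.22 log2 units. With knockdown replicate 2 left out 2 clock genes fell, as did 2 with ribosomal protein genes as the scale and 3 with library totals. The list's median was 2.6, and 1.42 with a transcript length offset. The labels do not give the hour of dissection.

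Genes listed for building ribosomes fell for 20 of 35, with a median log2 fold change of -1.16, and genes of the core spliceosome for 17 of 34, with a median of -0.57. The ribosome list kept Rrp1, which in flies names a DNA repair gene. CG13773, listed with RNA polymerase I, had 10.1 and 6.1 CPM in the libraries labelled knockdown, against 50.1 and 64.8 CPM in the controls (log2 fold change -2.82, SE 0.35, edgeR adjusted p = 6.87e-05). SmB and SmD1, of the Sm ring around small nuclear RNAs, fell by 1.75 and 1.65 log2 units, SmB with 21.5 and 22.4 CPM in the libraries labelled knockdown, against 62.1 and 86 CPM in the controls. The large splicing factor gene Prp8, with 0.40, did not pass. Rrp6, a nuclear exosome gene, was the 1 ribosome gene that rose, by 1.08 log2 units, and lost its call without knockdown replicate 1 (edgeR adjusted p = 0.0592) or control replicate 2 (edgeR adjusted p = 0.0906), with library totals (edgeR adjusted p = 0.0852) and with ribosomal protein genes as the scale (edgeR adjusted p = 0.325). The numbers that fell were 13 and 10 without control replicate 2, and 32 and 26 with ribosomal protein genes as the scale.

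Genes that still carry a placeholder symbol were changed about as often as the rest. Of 6423 such genes listed, 3302 were tested, of which 1057 were higher (32%) and 830 were lower (25.1%). CG44085 had 1463 and 2656 CPM in the libraries labelled knockdown, against 9.98 and 9.61 CPM in the controls (log2 fold change 7.71, SE 0.41, edgeR adjusted p = 3.43e-07), and its exons overlap another gene. CG7443 had 1767 and 1988 CPM in the libraries labelled knockdown, against 15.9 and 25.8 CPM in the controls (log2 fold change 6.49, SE 0.41, edgeR adjusted p = 7.88e-07). CG13124 had 621 and 985 CPM in the libraries labelled knockdown, against 7.29 and 5.63 CPM in the controls, a log2 fold change of 6.96. CG6357 and CG16700 rose by 5.4 and 5.91 log2 units, and the exons of CG16700 also overlap another gene. The rule that named these genes required groups without overlap. The 2 libraries of a group lay within 2-fold of each other.

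Among the placeholder genes that fell, 6 were taken for their high level in the controls. CG14309 had 10.7 and 5.04 CPM in the libraries labelled knockdown, against 637 and 660.1 CPM in the controls (log2 fold change -6.37, SE 0.40, edgeR adjusted p = 7.86e-07). CG15570 had 7.84 and 4.24 CPM in the libraries labelled knockdown, against 519 and 529.8 CPM in the controls (log2 fold change -6.44, SE 0.43, edgeR adjusted p = 1.24e-06). CG13114 had 27.4 and 4.11 CPM in the libraries labelled knockdown, against 609 and 653 CPM in the controls (log2 fold change -5.32, SE 0.80, edgeR adjusted p = 0.00137). These 3 were low in both libraries labelled knockdown, and CG13114 was lower still in replicate 2. CG34310 and CG10254 fell by 3.91 and 3.58 log2 units. The exons of both overlap another gene, as do those of CG45084, described next. CG45084 had 103 and 10.9 CPM in the libraries labelled knockdown, against 972 and 1092 CPM in the controls, and its call was lost without control replicate 1 (edgeR adjusted p = 0.0679) or 2 (edgeR adjusted p = 0.0747).

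Some genes were found in 1 group alone. Of all genes listed, 135 had no counts in the controls and a mean of at least 5 CPM in the libraries labelled knockdown, 56 of them with placeholder symbols, and 18 genes had the reverse, 12 of them with placeholder symbols. Those named here were chosen after their values were seen. CG9411 had 195 and 105 CPM in the libraries labelled knockdown, against no counts in the controls, at least 1094-fold higher against the floor of 3 counts. The gene dpy, for a giant protein that anchors cuticle, had 85 and 153 CPM in the libraries labelled knockdown, against none in the controls, at least 874-fold higher. RpL22-like, a ribosomal protein paralog known from the germline, had 124 and 39 CPM in the libraries labelled knockdown, against none in the controls, at least 592-fold higher. CG18088 had no counts in the libraries labelled knockdown and 36.9 and 29 CPM in the controls, at least 163-fold lower. CG12716 likewise had none, against 32 and 32 CPM in the controls, at least 159.5-fold lower.

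By position, chromosome 4 had the highest share of genes that rose, a pattern noticed after the values were seen. Of 75 genes tested on this small, heterochromatin-rich chromosome 45 were higher (60%) and 5 were lower (6.67%), with a median log2 fold change of 1.35. The medians of the other arms were -0.05 on X, 0.15 on 2L, 0.21 on 2R, 0.10 on 3L and 0.06 on 3R. On the X chromosome 28.4% of 1532 genes were higher and 29.9% were lower. On chromosome 4 the number higher was 33 with ribosomal protein genes as the scale, with a median of 0.85, and 34 without control replicate 2. No test of the difference between arms was run.

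Of the genes on chromosome 4 that rose, 4 chosen after their values were seen are given here. The giant muscle protein gene bt had 2707 and 3409 CPM in the libraries labelled knockdown, against 8.15 and 8.92 CPM in the controls. The Hedgehog pathway transcription factor gene ci, also an early somatic marker, had 262 and 241 CPM in the libraries labelled knockdown, against 6.52 and 8.05 CPM in the controls. The calcium pump gene PMCA had 1254 and 1624 CPM in the libraries labelled knockdown, against 350.1 and 297 CPM in the controls (log2 fold change 2.15, SE 0.24, edgeR adjusted p = 3.65e-05). CG1674 had 500.4 and 738 CPM in the libraries labelled knockdown, against 2.69 and 3.64 CPM in the controls (log2 fold change 7.6, SE 0.41, edgeR adjusted p = 3.52e-07). The 5 that fell were pho, CG11076, fuss, dati and Mitf. Of these, pho, for a DNA-binding Polycomb group protein, had 97.3 and 138 CPM in the libraries labelled knockdown, against 312 and 351 CPM in the controls (log2 fold change -1.5, SE 0.38, edgeR adjusted p = 0.0069).

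**Figure D4:**
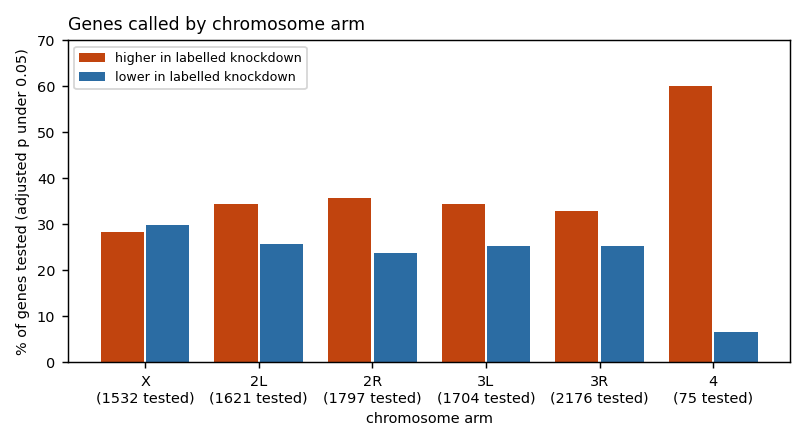
Share of the tested genes of each chromosome arm that were higher or lower in the libraries labelled knockdown (edgeR adjusted p under 0.05). Chromosome 4, with 75 genes tested, has the highest share of genes called higher, 60%, and the lowest share called lower, 6.67%.

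The 2 libraries labelled knockdown differed from each other more than the 2 controls did. The Pearson correlation of log2 CPM across genes was 0.925 between the libraries labelled knockdown and 0.98 between the controls, with the caution that genes are not independent replicates. Among genes with a mean of at least 20 CPM, the log2 ratio of replicate 1 over replicate 2 had a standard deviation of 0.787 in the libraries labelled knockdown (5243 genes) and 0.254 in the controls (5242 genes). More than 4-fold higher in knockdown replicate 1 were 88 genes (1.68%) and more than 4-fold lower 19 genes (0.362%). In the controls 4 genes (0.0763%) were more than 4-fold higher in replicate 1. With ribosomal protein genes as the scale the numbers for the libraries labelled knockdown were 31 and 30. These are ratios of single libraries and carry no test.

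Of the 88 genes far higher in knockdown replicate 1, 11 are eggshell markers, while no other list holds more than 1 of them. Of the late follicle cell and eggshell markers 17 of 18 were higher in replicate 1 than in replicate 2 of the libraries labelled knockdown, against 10 of 18 higher in replicate 1 of the controls. Over all genes tested those shares were 49.8% in the libraries labelled knockdown and 31.7% in the controls. The chorion gene Cp18 had 258 and 5.84 CPM in the libraries labelled knockdown, against 1460.0 and 1319 CPM in the controls, and the follicle cell gene Fcp3C had 52.3 and 1.19 CPM in the libraries labelled knockdown, against 142 and 168 CPM in the controls. Both were thus lower in the 2 libraries labelled knockdown than in the controls, but replicate 2 was far lower, and neither passed the test.

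Uncharacterised genes shared this pattern. CG32642 had 45.1 and 0 CPM in the libraries labelled knockdown, against 399 and 367 CPM in the controls, and CG31926 had 53.1 and 0 CPM in the libraries labelled knockdown, against 99.8 and 84.9 CPM in the controls. CG13083 had 177 and 1.99 CPM in the libraries labelled knockdown, against 672 and 726 CPM in the controls. In these 3 genes the 2 groups did not overlap, yet none passed the test, and a count of 0 in knockdown replicate 2 allows up to 0.398 CPM. Without knockdown replicate 1 all 3 passed as lower (edgeR adjusted p = 1.4e-08, 8.16e-08 and 2.17e-08). CG14931 had 47.7 and 0 CPM in the libraries labelled knockdown, against 40 and 37.8 CPM in the controls, and CG31674 had 49.6 and 0.265 CPM in the libraries labelled knockdown, against 4.22 and 7.62 CPM in the controls. Agpat1, a lipid synthesis gene, had 39.5 and 0.928 CPM in the libraries labelled knockdown, against 36 and 38.4 CPM in the controls. For those 3 the groups overlapped, since replicate 1 lay above both controls and replicate 2 far below them.

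The direction of the replicate difference varied with the gene group. All 13 tested fat body markers were higher in knockdown replicate 1, apolpp with 1101 and 432 CPM in the libraries labelled knockdown, against 22.8 and 38.3 CPM in the controls, and Lsp2 with 537 and 157 CPM in the libraries labelled knockdown, against 2.69 and 8.92 CPM in the controls. Markers of oviduct, spermatheca and gut were higher in replicate 1 for 8 of 14. Germline markers were higher in replicate 1 for 15 of 20 and ribosome biogenesis genes for 29 of 35. Septate junction genes were higher in replicate 1 for 1 of 27 and axon guidance genes for 2 of 21. With ribosomal protein genes as the scale replicate 1 was the higher for 11 fat body, 13 germline, 18 ribosome biogenesis, 0 septate junction and 1 axon guidance genes. Replicate 1 of the controls was the higher for 8 and 14 of the septate junction and axon guidance genes, and for 31.7% of all genes tested.

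Over all genes tested, knockdown replicate 1 was the higher for 49.8%. The share was 61.3% among genes called lower and 34.1% among genes called higher. With ribosomal protein genes as the scale these shares were 22.2% of all genes tested, 26.9% of genes called lower and 14.1% of genes called higher, so the order of the replicates among genes that fell turns with the scale. Transcript length ran alongside. Genes with a mean of at least 20 CPM in the libraries labelled knockdown were placed in 5 classes of equal size by exonic length. The median log2 ratio of replicate 1 over replicate 2 was -0.28 in the class of longest genes and 0.2 in the class of shortest ones. The median log2 fold change of labelled knockdown over control was 0.9 in the class of longest genes and between 0.11 and 0.28 in the others. The part of transcript length or RNA quality in the replicate difference was not tested.

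A small set of genes was found in knockdown replicate 2 almost alone. CG16826 had 2.43 and 1011 CPM in the libraries labelled knockdown, against no counts in the controls. The genes lcs and whe, close to each other on the X chromosome (dm6 chrX:21396727-21397316 and chrX:21402339-21402772, both on the minus strand), had 0 and 265 CPM and 0.405 and 262 CPM in that group, against no counts in the controls. CG42704 and CG42705, neighbours elsewhere on the X chromosome (dm6 chrX:7412668-7413296 and chrX:7413869-7414662, both on the plus strand), had 0 and 257 CPM and 0 and 117 CPM and again none in the controls. CG45080 had 0 and 189 CPM, CG46312 had 0 and 69.8 CPM and CG33109 had 0 and 51.7 CPM in the same libraries, against none in the controls. Of the 19 genes in this direction 11 had no counts in either control, and their median exonic length was 1067 bases, against 2601 bases for all genes compared. Of the 8 named, lcs, CG45080, whe and CG33109 did not pass the filter on low counts and the other 4 did not pass the test.

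**Figure D5:**
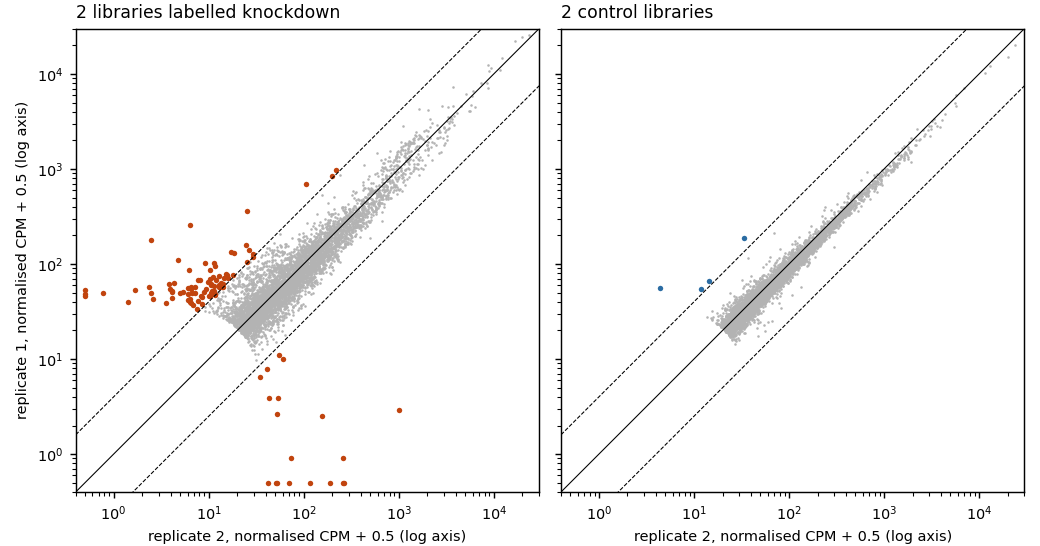
Normalised CPM of replicate 1 against replicate 2 for genes with a mean of at least 20 CPM, in the libraries labelled knockdown and in the controls (log axes). In the libraries labelled knockdown 88 genes are more than 4-fold higher and 19 more than 4-fold lower in replicate 1, and in the controls 4 genes are more than 4-fold higher.

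The bamGAL4 libraries of the series, whose driver acts in dividing germline cysts, served to test whether the most abundant changed genes differed between drivers. Over all genes tested the nosGAL4 effect differed from the bamGAL4 effect for 240 (2.68%), and it did so for 2 of the 27 genes that the abundance rule names. Cp36 had 192 and 97.9 CPM in the nosGAL4 libraries labelled knockdown, and 3.81 and 2.48 CPM in the bamGAL4 ones, against 3288 and 4050.1 CPM and 3340 and 3837 CPM in their controls. The difference between its log2 fold changes was 5.48 (SE 0.51, edgeR adjusted p = 0.00106). CG14309 had 10.7 and 5.04 CPM in the nosGAL4 libraries labelled knockdown, and 0.62 and 0.596 CPM in the bamGAL4 ones, against 637 and 660.1 CPM and 487 and 733 CPM in their controls. The difference was 3.57 (SE 0.57, edgeR adjusted p = 0.0155), and it did not pass without nosGAL4 control replicate 1 (edgeR adjusted p = 0.0552) or 2 (edgeR adjusted p = 0.0642). For the other 25 genes the test did not pass, which does not show that the drivers act alike on them.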

How the data were processed

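Estimated counts per gene, which are not whole for every gene, were deposited by the authors for each library, unscaled. Salmon 1.2.1, STAR 2.7.5b, Trim Galore 0.6.6, FastQC 0.11.8 and the build dm6 appear in the submitters' processing notes, with no role or order. How the counting treated strand is not given in the sources used here. Reads of overlapping or antisense genes may therefore be shared. Exons overlap another gene for 3716 of the 8957 genes tested, and this is mentioned for only some of the named genes that it concerns. Of 14094 gene identifiers 14048 were matched to the BDGP6 annotation (dm6 coordinates) for symbols and positions.

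Counts were rounded and filtered with filterByExpr (minimum count 10, minimum total 15), and 1 robust quasi-likelihood model with 4 groups was fitted to all 8 libraries in edgeR 4.0.16 (limma 3.58.1, R 4.3.3), which leaves 4 residual degrees of freedom. The bamGAL4 libraries enter to share the estimate of spread. Benjamini-Hochberg adjustment ran across the 8957 genes tested, with a threshold of 0.05. CPM values use TMM factors, and fold changes use a prior count of 0.125. Where a group had no counts, the bound on the fold takes 3 counts for the whole group as the floor. Floors and intervals cover counting error only. Ratios between the libraries of a group use 0.5 CPM as prior.

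Members and lists were chosen with earlier results of these data known. Genes were named from the 8 most abundant genes per direction changed at least 4-fold without overlap, 6 placeholder genes per direction by the same rule, the 2 list members per direction with the smallest p, the 8 highest and lowest ratios of the libraries labelled knockdown, and uncalled genes of high level. Not every gene the rule names is described. Others are said to have been chosen after their values were seen. From the lists 3 entries were left out because the symbol named another gene, and 13 were not matched. The alternatives were RLE factors, library totals, ribosomal protein scaling, no filter, a filter at 5 CPM in 2 libraries, the 4 nosGAL4 libraries alone, a replicate block, a transcript length offset, DESeq2 1.42.0, a prior of 2 CPM for library ratios and leaving out each library. Tested on simulated data for the nosGAL4 contrast over 7807 genes, the model recovered 11.5% of genes changed 2-fold, 82.3% at 4-fold and 100% at 8-fold and at 16-fold, with 2 unchanged genes among 147 called. The simulation gave every gene the same fixed spread in all libraries, took means from the controls and changed few genes. Its rates thus do not measure the power in the deposited data, where the libraries labelled knockdown differed more than the controls.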

Additional observations from a re-analysis of the deposited data

Results flagged for a closer look

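Between the drivers, Cp36 and CG14309 fell by different amounts in the test of the difference itself. For Cp36 the nosGAL4 log2 fold change minus the bamGAL4 one was 5.48 (edgeR adjusted p = 0.00106), since the gene fell by 4.66 log2 units under nosGAL4 and fell by 10.14 under bamGAL4. For CG14309 it was 3.57 (edgeR adjusted p = 0.0155), since it fell by 6.37 log2 units under nosGAL4 and fell by 9.94 under bamGAL4. The 2 pairs of libraries also differ in the balancers listed for them, so driver and balancer cannot be told apart.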

How the results depend on the processing

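The counts of genes higher and lower stayed within 1.5 times the reported ones under every alternative run, with the replicate block at 2761 and 2142. The majority turned from higher to lower with library totals (2449 higher and 3246 lower) and ribosomal protein scaling (2125 higher and 3313 lower). The labels do not say whether same-numbered libraries were paired. Their deviations correlated at -0.037 over 2 pairs, which cannot settle it, so the block was an alternative only. Of the fold changes of single named genes, 1889 values kept their call and 85 lost it, and no called value changed its sign. The balance of chaperone genes turned with those scales, as did the sign of the fat synthesis median with ribosomal protein scaling. The rise of stwl lost its call when scaled to totals (0.72) or to ribosomal protein genes (0.43) and in the 4 nosGAL4 libraries alone (1.07), and leaving out a library gave 0.46 to 1.59. Genes more than 4-fold apart between the libraries labelled knockdown numbered 31 higher and 30 lower in replicate 1 with ribosomal protein scaling. The count of genes whose drivers differ was the least stable, at 136 higher and 104 lower as reported. It was 289 and 248 without a filter, 455 and 609 with DESeq2 and 58 and 41 with a length offset. The higher count was 89 with the replicate block, and the lower count was 161 with RLE factors, 176 when scaled to totals and 3055 when scaled to ribosomal protein genes. Leaving out a library gave 28 to 997 higher and 27 to 573 lower. The difference between drivers could not be computed from the 4 nosGAL4 libraries alone. The deposited data gave 379 higher and 575 lower calls under 2-fold. In the simulated data 11.5% of genes changed 2-fold were recovered, but with a spread not estimated from these data, so the rate cannot be set against those calls.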
